A study of Mus musculus with 6 samples.

Results

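Motile cilia and sperm tails share an inner machine of microtubules, the axoneme, in which a central pair of microtubules is ringed by outer doublets. Radial spokes stand on the outer doublets and reach inward. Their stalk is fixed to the doublet and their head meets the projections of the central pair, and this contact is known to control the dynein motors that bend the tail. In mouse testis these parts are built in spermatids, and mutants of several of the genes below are known for immotile sperm, hydrocephalus or airway disease. The genes described here are the 10 radial spoke and central pair genes Rsph1, Rsph3a, Rsph4a, Rsph6a, Rsph9, Spag6, Spag16, Spag17, Hydin and Spef2. They were chosen by their gene names on the array, with every probe that carries such a name, which gave 19 of the 41174 gene probes and 10 of the 27376 gene names.

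The measurements came from whole testes of 3 Prss54KO mice and 3 WT mice, with 1 array of 1-colour Agilent mouse expression probes per animal. Prss54 encodes a member of the serine protease family, and the comparison asks which testis transcripts differ when it is disrupted. All 6 mice were males of 6 to 8 weeks on a mixed 129Sv/C57BL/6 background, and the labels name no allele other than Prss54KO, no litter and no part of the gene that was removed. The processed signal is the brightness of a spot in intensity units, with the background already treated by the scanner software. The level is the log2 of that signal minus the array's 75th percentile, and a difference is the Prss54KO mean level minus the WT mean level. A probe entered the test if the scanner software marked it as well above background in 3 or more mice, which left 28913 probes of 19389 genes.

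Between 66.2% and 74.8% of the gene spots of an array were well above background, none was saturated, and any pair of arrays had an r of at least 0.994 over levels. There were 3 slides: Prss54KO replicates 1 and 2 with WT replicate 3 on slide 2, Prss54KO replicate 3 on slide 1, and WT replicates 1 and 2 on slide 3. The Prss54 probe gave 7381, 9466 and 8416 intensity units in the Prss54KO mice, against 22677, 24153 and 26120 in the WT mice. Its level differed by -1.56 (SE 0.10), with limma's adjusted p at 0.116 over all probes, and whether it lies in the removed part is not known here. Markers of meiotic and haploid germ cells were measured in both genotypes, with median differences of 0.04 for 5 spermatocyte genes, 0.04 for 5 round spermatid genes and -0.01 for 5 elongating spermatid genes. Of 5 epididymal markers, 3 (Lcn8, Crisp1 and Spint4) were not tested because they lay under this filter, Defb41 stood at 0.21 with all Prss54KO mice above all WT mice, as in 4.18% of all genes, and Lcn9 at 0.52 with overlapping genotypes. The 4 matrix genes had a median of -0.70 and were all below 0, and 3 of them, Col1a1 (-0.73), Col3a1 (-0.67) and Lum (-0.94), lay lower in all Prss54KO mice than in all WT mice, as 3.61% of all genes did. The median was -0.18 for 5 macrophage and blood genes, all below 0 with overlapping genotypes, -0.02 for 5 Sertoli cell genes and -0.06 for 4 Leydig cell genes. Leydig cell genes ran from -0.58 (Star) to 0.19 (Hsd3b6), and Sertoli cell genes from -0.03 (Wt1) to 0.22 (Amh), all with overlapping genotypes. Amh was well above background on only 3 arrays. The part of these cells in the values below was not tested. In whole tissue, fewer cells of a type and less RNA per cell cannot be told apart.

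The probes are strands of 60 bases whose letters decide which transcript was read. Those of the genes to which the results return most often are shown, all in lower case since no base of them stands out, with their positions in mm9, the mouse build of the files. The Rsph1 probe covers a span of 162 bases on the minus strand, chr17:31410354-31410515, so its 60 bases are not continuous in the genome. The Rsph3a probe covers 6305 bases of the plus strand, chr17:8139154-8145458. The Rsph6a probes cover chr7:19653477-19659422 and chr7:19659424-19659483, both on the plus strand. They start at base 1923 and base 1984 of the same transcript and so lie side by side, with a single base between them. The Spag17 probes lie at chr3:99853073-99853131 and chr3:99858820-99858879, both on the plus strand.
Rsph1 A_51_P373901: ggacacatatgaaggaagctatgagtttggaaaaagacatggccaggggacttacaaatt
Rsph3a A_51_P367563: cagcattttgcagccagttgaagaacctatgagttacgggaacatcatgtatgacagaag
Rsph6a A_51_P104786: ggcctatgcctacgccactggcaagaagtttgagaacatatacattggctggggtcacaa
Rsph6a A_51_P104783: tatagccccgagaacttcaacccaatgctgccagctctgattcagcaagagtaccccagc
Spag17 A_51_P232617: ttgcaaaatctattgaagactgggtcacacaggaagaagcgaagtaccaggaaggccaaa
Spag17 A_52_P814677: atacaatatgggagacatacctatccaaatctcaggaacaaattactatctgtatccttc

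The names on the array needed care for 2 genes. The files list transcripts of both Rsph3a and its near-copy Rsph3b for all 3 probes under the name Rsph3a, so these values are the sum of whatever those transcripts gave, and Rsph3b has no probe under its own name. The bright probe called Spag6 targets the transcript that RefSeq now names Spag6l, on chromosome 16. The gene that RefSeq now calls Spag6, on chromosome 2, appears on the array as BC061194. It is outside the 10 names and was looked up because of this change. BC061194 gave 25207, 32391 and 28831 intensity units in the Prss54KO mice, against 23398, 26498 and 27025 in the WT mice. Its genotypes overlapped, and its difference was 0.13 (SE 0.11, limma's unadjusted p 0.267).

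Of the 19 probes, 16 passed the filter, and they stand for 9 of the 10 genes. The exception was Rsph4a, whose only probe was well above background on 1 of the 6 arrays. In the limma fit over all probes, 0 of the 16 passed an adjusted p of 0.05, where the share over all tested probes was 0%, and every adjusted p was 0.9998. At an unadjusted p under 0.05 the fit also had 0 of the 16, against 3.21% of all probes (929). In the fit by gene, where the brightest probe stands for a gene, 0 of the 9 genes passed, against 0% of all genes, and 0 had an unadjusted p under 0.05, against 3.31% of all genes (642). The differences ran from -0.16 (Spef2, dimmer probe) to 0.13 (Rsph6a), with 10 of 16 above 0 and 6 below. All 16 of the 95% intervals held 0. Of these intervals, 13 lay within a 1.3-fold change in either direction and 15 within 1.5-fold, and the widest reached 1.52-fold lower. A p that misses the threshold does not show equal levels. These intervals give the sizes that 3 mice per genotype leave possible in a fit that leaves the slide out. Slide 1 held only a Prss54KO mouse and slide 3 only WT mice, so outside slide 2 genotype and slide cannot be told apart.

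**Figure D1:**
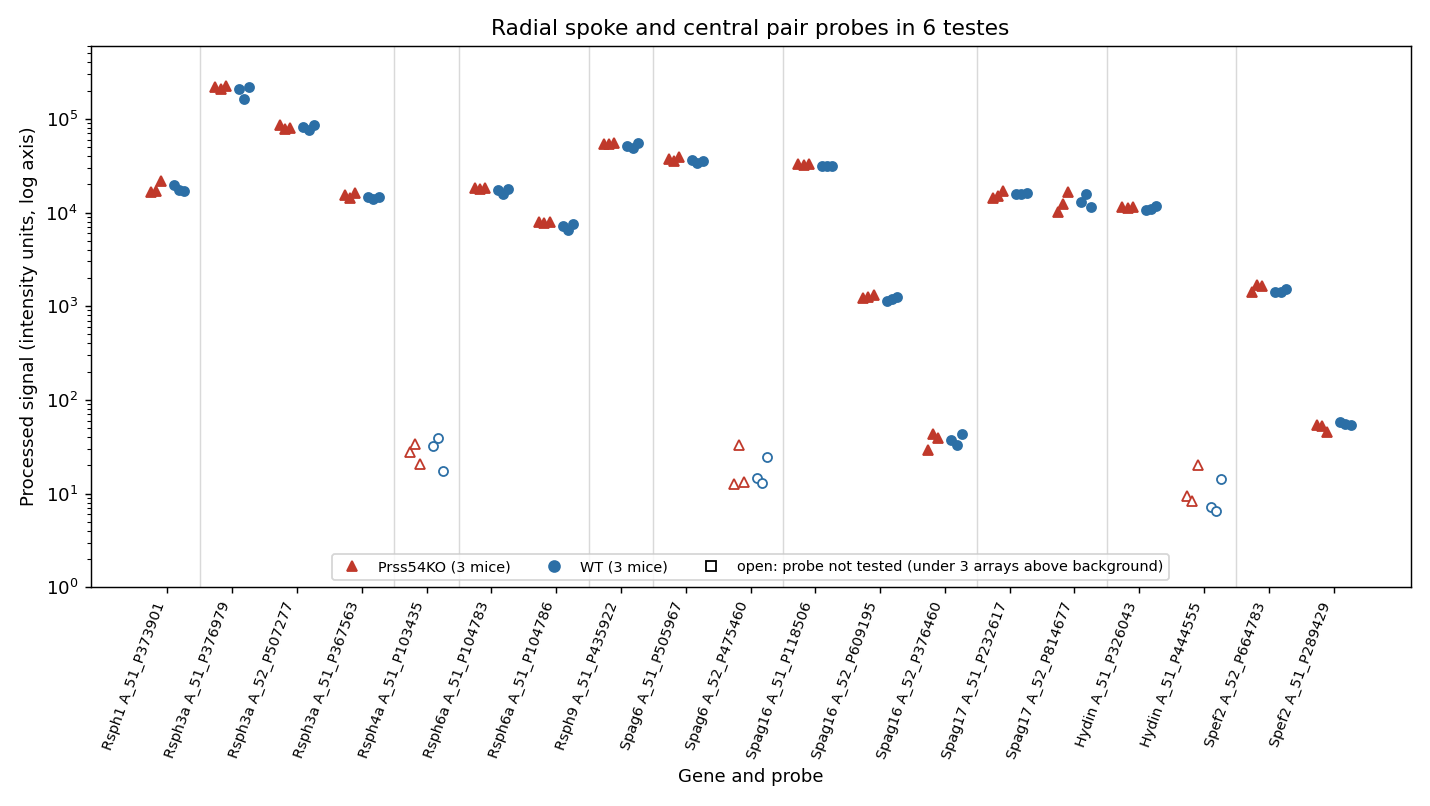
Processed signal of the 19 radial spoke and central pair probes in each mouse, in intensity units on a log axis, with Prss54KO (triangles) left of WT (circles). Open symbols are the 3 probes that did not pass the filter, which lie under 40 intensity units, and for the tested probes the symbols of the genotypes stand at nearly the same height.

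The stalk of the radial spoke is represented by Rsph3a, the mouse counterpart of an algal spoke protein that forms the stalk's core and anchors protein kinase A. Its brightest probe, A_51_P376979, gave 217202, 206872 and 221834 intensity units in the Prss54KO mice, against 208823, 162853 and 219923 in the WT mice. WT replicate 2 was the low mouse and the other 5 lay close together. The difference was 0.11 (95% interval -0.14 to 0.36), and without WT replicate 2 it was -0.00129. The probe A_52_P507277 gave 85669, 78646 and 80021 units in Prss54KO testes, against 81613, 76569 and 85067 in WT testes, a difference of -0.02 (95% interval -0.16 to 0.12). The probe A_51_P367563, printed above, gave 15337, 14126 and 15956 units in Prss54KO testes, against 14782, 14074 and 14736 in WT testes, a difference of 0.03 (95% interval -0.12 to 0.18). The genotypes overlapped for all 3 probes. WT replicate 2 had the lowest signal of the 6 mice in every one of them, but on the level scale it was the lowest only in the brightest. The level of the brightest minus that of A_52_P507277 was 1.09 in WT replicate 2 and 1.34 to 1.47 in the other 5 mice.

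The head of the spoke is built from Rsph1, Rsph4a, Rsph6a and Rsph9. Rsph4a and Rsph6a are paralogues: Rsph4a serves the cilia of airway and brain, while Rsph6a is known from sperm, where its loss in mice gives short tails. Their probes differed in detection. Rsph4a has no further probe, and Spag6 and Hydin each have a probe at the background beside a bright one. The Rsph4a probe alone therefore does not show that its transcript is absent. Rsph4a gave 27.7, 33.9 and 20.6 units in Prss54KO testes, none of them well above background, against 32.0, 39.1 and 17.4 in WT testes, where 1 was. No difference is given for Rsph4a, since both genotypes were at the background. Each Rsph6a probe was well above background on all 6 arrays, with a mean brightness of 113 to 374 times the local background beside the spot. For Rsph4a this ratio was 1.60 to 2.52.

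Rsph6a had the largest difference above 0 of the 16 probes and the smallest p among them. Its probe A_51_P104786 gave 7917, 7672 and 7967 units in Prss54KO testes, against 7107, 6446 and 7611 in WT testes. All 3 Prss54KO mice lay above all 3 WT mice, the difference was 0.13 (95% interval -0.01 to 0.27), or 1.09-fold, and limma's unadjusted p was 0.0666. With an intensity trend and robust variance the unadjusted p of this probe was 0.0389 in limma, and its adjusted p 0.9995. In no other setting was limma's unadjusted p under 0.05. It was 0.335 with normexp background correction and 0.189 without WT replicate 2. The neighbouring probe A_51_P104783 gave 18463, 17659 and 18485 units in Prss54KO testes, against 17563, 15871 and 17679 in WT testes, with a difference of 0.07 (95% interval -0.07 to 0.20). Here Prss54KO replicate 2 lay within the WT values, so the genotypes overlapped although the probes are neighbours. WT replicate 2 was the lowest mouse in both probes, and without it the differences were 0.09 and 0.04. On slide 2 alone, with 2 Prss54KO mice against 1 WT mouse, both probes stood at 0.07.

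Rsph9, a smaller protein of the spoke head, gave 53762, 54481 and 54948 units in Prss54KO testes, against 51013, 48314 and 54835 in WT testes. On the level scale the lowest Prss54KO mouse, at 5.008, lay just above the highest WT mouse, at 5.006, while the raw signals of these mice overlapped. The difference was 0.05 (95% interval -0.07 to 0.18), and 0.02 on slide 2 alone. Rsph6a A_51_P104786 and Rsph9 were the 2 of 16 probes with all Prss54KO mice above all WT mice, against 4.32% of all probes (1250). None of the 16 had all Prss54KO mice below all WT mice, against 3.56% (1030).

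Rsph1 encodes a spoke head protein made largely of MORN repeats. It gave 16455, 16957 and 21558 units in Prss54KO testes, against 19836, 17435 and 16852 in WT testes. The high mice were Prss54KO replicate 3 and WT replicate 1, so the WT values lay within the range of the Prss54KO values, and the difference was -0.01 (95% interval -0.33 to 0.30). With 1 mouse left out, this difference ran from -0.13 (without Prss54KO replicate 3) to 0.06 (without WT replicate 1).

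**Figure D2:**
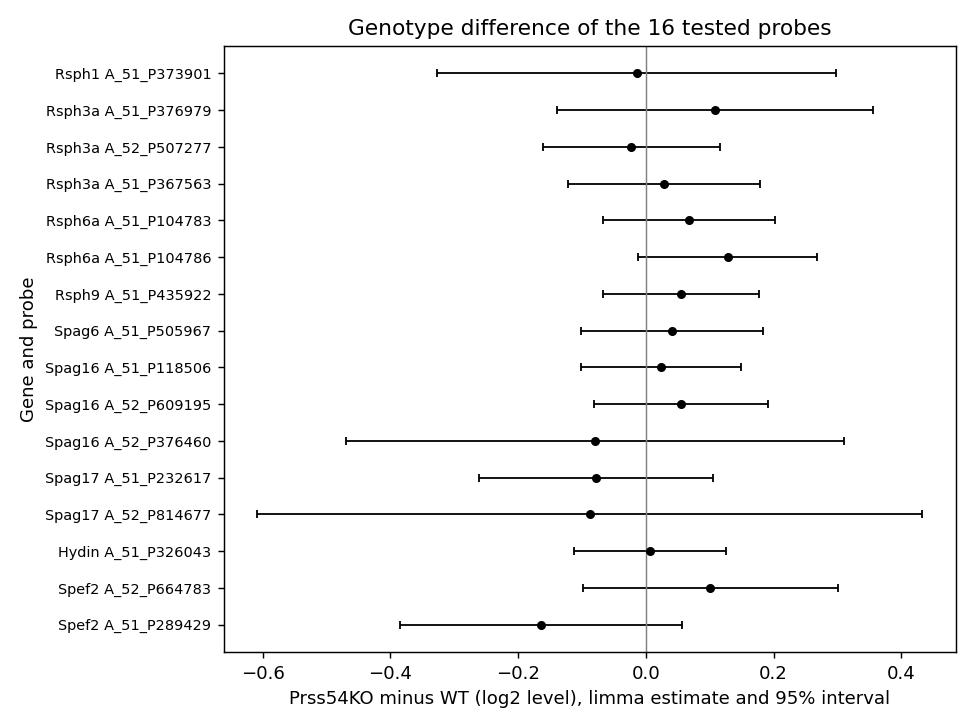
Difference in level, Prss54KO minus WT, for each of the 16 tested probes (points, log2 scale) with limma's 95% interval (bars, n = 3 mice per genotype). Every interval crosses 0, and the widest belong to Spag17 A_52_P814677, Spag16 A_52_P376460 and Rsph1.

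The central pair carries projections on each of its microtubules, which the algal counterparts of these genes have been used to map. Spag6, an armadillo-repeat protein of these projections, was read here through the Spag6l transcript. It gave 37198, 35149 and 38988 units in Prss54KO testes, against 36118, 34018 and 35870 in WT testes. The genotypes overlapped, with a difference of 0.04 (95% interval -0.10 to 0.18). A further probe under the name Spag6 lies on the same chromosome and was not well above background on any array, at 12.6, 33.0 and 13.2 units in Prss54KO testes, against 14.8, 13.1 and 24.6 in WT testes.

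Spag16, a WD-repeat protein that occurs in a long and a short form, had 3 tested probes. The brightest, A_51_P118506, gave 32701, 31804 and 32967 units in Prss54KO testes, against 31026, 31317 and 31573 in WT testes, a difference of 0.02 (95% interval -0.10 to 0.15). On the signal scale all Prss54KO mice were above all WT mice, but after scaling WT replicate 2 had the highest level of the 6. The probe A_52_P609195, which starts at base 217 of the same transcript where the brightest starts at base 1120, gave 1236, 1244 and 1308 units in Prss54KO testes, against 1123, 1187 and 1267 in WT testes. Its difference was 0.05 (95% interval -0.08 to 0.19), and its genotypes overlapped. The third, A_52_P376460, was well above background in 1 Prss54KO mouse and 2 WT mice, with 28.9, 42.8 and 38.8 units in Prss54KO testes, against 37.2, 33.1 and 43.1 in WT testes. At that brightness its interval was wide, -0.47 to 0.31 around -0.08.

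Spag17, a large central pair protein, had the widest interval of the 16. Its probe A_52_P814677 gave 10038, 12380 and 16488 units in Prss54KO testes, against 12814, 15697 and 11507 in WT testes. The difference was -0.09 (95% interval -0.61 to 0.43), and the SD of the level was 0.35 among Prss54KO mice and 0.28 among WT mice. The probe A_51_P232617 of the same gene gave 14126, 15003 and 16924 units in Prss54KO testes, against 15586, 15597 and 16333 in WT testes. Its WT mice lay close together (SD 0.02) and its Prss54KO mice on both sides of them (SD 0.13), with a difference of -0.08 (95% interval -0.26 to 0.10). On slide 2 alone the values were -0.01 for A_52_P814677 and -0.13 for A_51_P232617.

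Hydin encodes a very large projection protein whose mouse mutants develop hydrocephalus. It gave 11440, 11216 and 11552 units in Prss54KO testes, against 10712, 10876 and 11810 in WT testes. Of the 16 probes it had the smallest spread, 0.06 between the lowest and the highest level of all 6 mice, and its difference was 0.01 (95% interval -0.11 to 0.12). Another probe named Hydin was not well above background on any array, with 9.50, 8.32 and 20.0 units in Prss54KO testes, against 7.17, 6.46 and 14.4 in WT testes. Hydin lies on chromosome 8 as Prss54 does, 15.1 Mb away in mm9. The same chromosome holds Drc7, 0.48 to 0.50 Mb from Prss54, and Gas8 at 28.0 Mb, both of the nexin-dynein regulatory complex. Drc7 had differences of 0.04 and 0.07 on its probes and Gas8 had 0.02, all with limma's adjusted p at 0.9998.

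Spef2 encodes a central pair protein that male mice need to build the sperm tail. Its brighter probe, A_52_P664783, gave 1419, 1701 and 1662 units in Prss54KO testes, against 1421, 1421 and 1516 in WT testes. Prss54KO replicate 1 lay at the WT level and the other Prss54KO mice above it, and the difference was 0.10 (95% interval -0.10 to 0.30). Without Prss54KO replicate 1 it was 0.18, with limma's unadjusted p at 0.0262. By the brightest probe of each gene, none of the 9 genes had an unadjusted p under 0.05 in any other of the 19 settings tried. The dimmer probe, A_51_P289429, gave 54.4, 52.5 and 45.6 units in Prss54KO testes, against 58.0, 54.7 and 54.4 in WT testes, a difference of -0.16 (95% interval -0.38 to 0.06). The probes thus differed in sign, but both intervals held 0, so no direction is given for Spef2. On slide 2 alone both probes stood above 0, at 0.07 for the brighter and 0.01 for the dimmer. The mean brightness of the dimmer probe was only 2.37 to 2.94 times the local background, against 30.2 to 42.0 times for the brighter.

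Taken as a group of 9 genes, 7 lay above 0 and 2 (Rsph1 and Spag17) below. Of all 19389 genes, 10307 lay above 0 and 9082 below. Their median difference was 0.04, beside 0.01 over all 19389 genes. With each gene set against its WT mean, the 3 Prss54KO mice had medians over the 9 genes of 0.03, 0.01 and 0.08, and the 3 WT mice had 0.01, -0.00189 and -0.01. The median absolute difference of all genes was 0.0569 and its 75th percentile 0.112, and all 9 lay under that percentile. With the mean of a gene's probes in place of the brightest, the median of the 9 genes was 0.00648, beside 0.00789 over all genes. With normexp background correction the median of the 9 genes was 0.07, beside 0.00872 over all genes.

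Rsph1 and Spag17 had lower levels on slide 2 than on the other slides, a pattern also seen over all probes. The levels of Rsph1 were 3.30 to 3.36 on the 3 arrays of slide 2 and 3.46 to 3.68 on the 3 other arrays, and their means differed by -0.26. For Spag17, the probe A_52_P814677 had levels of 2.59 to 2.90 on slide 2 and 2.99 to 3.31 elsewhere, a difference of means of -0.45, and A_51_P232617 had 3.08 to 3.26 against 3.27 to 3.33, a difference of -0.13. For these 3 of 16 probes every array of slide 2 lay below every other array, and for none did every array lie above. Over all probes, 9.42% lay below in this way (2723) and 9.96% above (2881), together 19.4%. With both sides counted, the share among the 16 is near that of the whole array. All 3 lay below, though, and the Spag17 probes among them are of 1 gene. The level of A_51_P232617 minus that of A_52_P814677 ran from -0.01 in WT replicate 2 to 0.51 in WT replicate 3. Such gaps between probes of a gene moved over the 6 mice by 0.51 for Spag17, 0.20 to 0.38 for the pairs of Rsph3a, 0.15 to 0.63 for those of Spag16, 0.57 for Spef2 and 0.10 for the neighbouring Rsph6a probes. The dim probes of Spag16 and Spef2 are part of the widest of these. Slide 2 holds mice of both genotypes, and within it Rsph1 differed by 0.03, with WT replicate 3 at 3.30 between Prss54KO replicate 1 at 3.30 and Prss54KO replicate 2 at 3.36. What sets slide 2 apart was not tested.

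**Figure D3:**
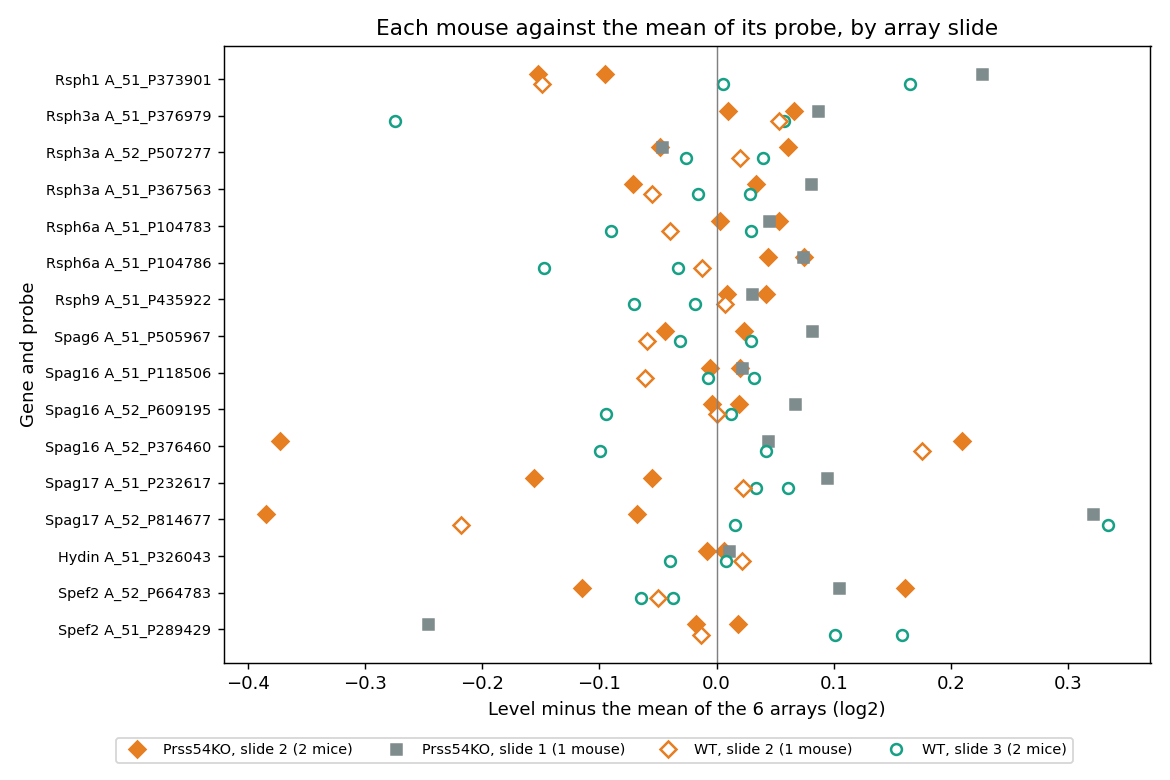
Level of each mouse minus the mean of its 6 arrays for the 16 tested probes (log2 scale), with Prss54KO as filled and WT as open symbols, and the shape and colour giving the slide. For Rsph1 and Spag17 A_52_P814677 the diamonds of slide 2 lie left of all other symbols.

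Promoters of the group were read because genes of motile cilia are known to be driven by RFX factors, which bind an inverted repeat called the X-box. Promoter windows from RefSeq (GRCm38.p6), 250 bases before to 50 after a start, were found for 8 of the 10 genes, with Spag6l standing for Spag6. The search asked for GTNNC, any 4 bases, then GNNAC, a pattern that reads the same on both strands and was set with these promoters in view. It was found in 4 of the 8 windows, of Rsph9, Spag6l, Spag16 and Hydin, and in 7.2% of all 32851 windows (2354). Because the pattern was set with these promoters in view, these shares cannot show whether it is more frequent in the group. Rsph3a, Rsph6a, Spag17 and Spef2 had no match in theirs. For each gene with a match, 1 match is shown in capitals with its flanks, and the Rsph9 stretch ends with the match. The Rsph9 stretch is chr17:46144193-46144224 on the minus strand, Spag6l chr16:16829487-16829536 on the minus strand, Spag16 chr1:69826849-69826898 on the plus strand and Hydin chr8:110266938-110266976 on the plus strand, all in GRCm38.p6.
Rsph9: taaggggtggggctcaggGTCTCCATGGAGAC
Spag6l: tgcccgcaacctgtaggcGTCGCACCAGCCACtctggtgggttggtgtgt
Spag16: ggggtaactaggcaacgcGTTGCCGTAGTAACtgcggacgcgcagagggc
Hydin: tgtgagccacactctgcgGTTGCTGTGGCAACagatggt

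The match begins at base -6 from the start in Rsph9, -155 in Spag6l, -103 in Spag16 and -21 in Hydin. The Rsph9 match runs across the start to base 7, and Spag6l holds another match at 34 that is not shown. These lines show the letters on the strand of the gene, so that the flanks can be read toward its start. Of the factors known to act on such genes, Rfx2, which mice need for spermatid tails, differed by 0.01 (SE 0.05), Foxj1 by 0.07 (SE 0.16) and Rfx3 by -0.08 (SE 0.12). None of the 3 passed limma's adjusted threshold, and the match of letters does not show binding.

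No gene of the wider radial spoke and central apparatus lists passed the test either. Of 15 further radial spoke genes, 11 were found on the array and 10 were tested, with 0 passing limma's adjusted threshold in either direction, 4 above 0 and 6 below, and a median of -0.01. Among them were Rsph14 at 0.03 (SE 0.08, under its older name Rtdr1), Nme5 at -0.02 (SE 0.07), the kinase-anchor partner Ropn1l at 0.00 (SE 0.11) and the chaperone-like Dnajb13 at -0.01 (SE 0.07). Rsph10b was not matched to a name on the array. Of 18 listed central apparatus genes, 14 were found, Spag6l among them, and besides Spag6l 12 were tested. Of those 12, 0 passed, 10 lay above 0 and 2 below, with a median of 0.04. Over all genes, 10307 of 19389 lay above 0. Cfap221, known from mice with ciliary disease, stood at -0.05 (SE 0.05), the kinase Stk36 at 0.09 (SE 0.06) and the kinesin Kif9 at 0.02 (SE 0.06). The genotypes overlapped for every tested gene of these lists.

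Median differences were also small in the lists of other sperm tail parts. The nexin-dynein regulatory complex and the ruler proteins that space spokes along the doublet had 11 tested genes, 0 of them passing, with a median of 0.02 and Gas8, a core subunit, at 0.02 (SE 0.05). Dynein arm genes had 16 tested, 0 passing and a median of 0.03. Dnah1, an inner arm heavy chain, is named here because of its value. It was the only gene of these lists with an unadjusted p under 0.05 in limma (0.13, SE 0.05, p 0.0411), as 3.31% of all genes had. Its Prss54KO mice lay above its WT mice, as in 4.18% of all genes. Outer dense fibre and tektin genes had 9 tested, 0 passing and a median of 0.04, and fibrous sheath genes 12, 0 passing and a median of -0.00323.

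**Figure D4:**
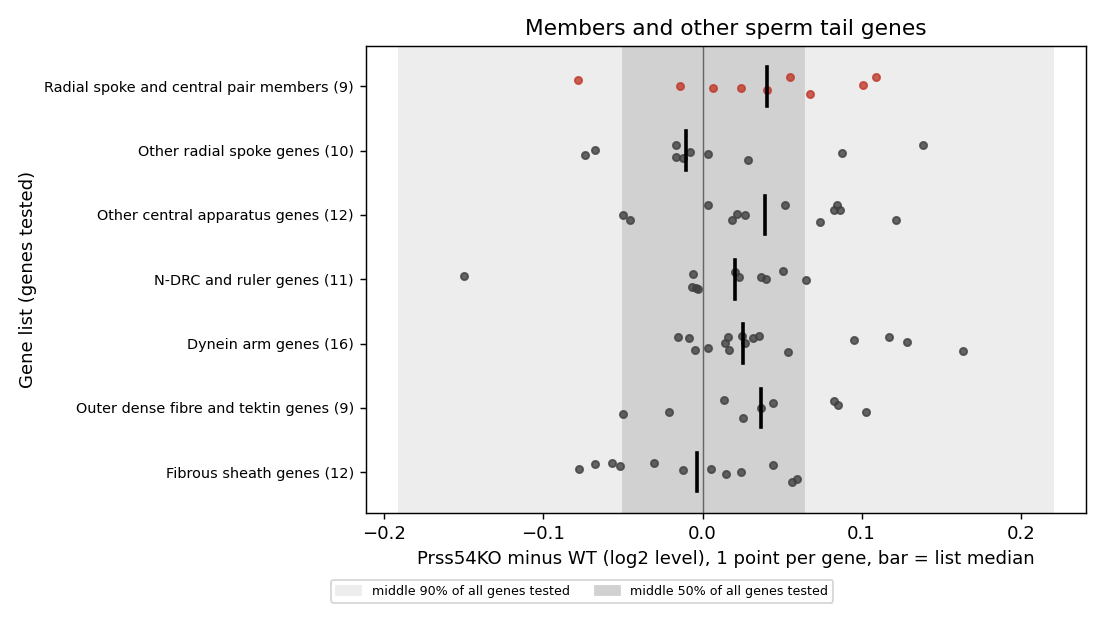
Difference in level, Prss54KO minus WT (log2 scale), of each tested gene of the radial spoke and central pair group (top row) and of 6 further lists of sperm tail genes, with bars at the medians and shading from the 25th to the 75th (darker) and from the 5th to the 95th percentile of all 19389 genes. Every median lies between -0.01 and 0.04, inside the darker shading.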

How the data were processed

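RNA of 6 testes was labelled with Cy3 from 0.5 ug per sample, per the labels' protocols. The deposited scanner files hold spot intensity on a linear scale and 0 or 1 marks for background, saturation and outliers, written by Agilent Feature Extraction 10.7.3.1 per the file headers (10.7 per the submitters' processing notes). A deposited series table of log2 values, whose columns have identical quantiles, served as an alternative only. Outlier spots were left out, spots of a probe averaged, each array's 75th percentile was subtracted from its log2 processed signals, and genotypes were compared with limma 3.58.1 (R 4.3.3; two-sided eBayes after lmFit, Benjamini-Hochberg over all probes or genes, threshold 0.05). The gene fit was tested on simulated data with independent noise and no slide effect. The changes added there were larger than any difference of the members, so that test does not cover changes of their size. Replicates are separate mice. The number of arrays limits the precision. The members and lists were chosen with earlier results of these data known. The text names all members and their probes, further genes by role (1 of them is not reported here), and any list gene past the threshold. Probe positions are mm9, per the file headers, and since no mm9 annotation was used here, exons and untranslated regions are not assigned to probes. The alternatives were other scalings, background correction, filters, probe summaries, the authors' table, slide and replicate blocks, array weights, an intensity trend and leaving out each mouse.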

Additional observations from a re-analysis of the deposited data

How the results depend on the processing

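No radial spoke or central pair gene passed limma's adjusted threshold under any of 19 alternative settings, and the lowest adjusted p of any of their probes was 0.818. Over all genes, limma called 1 gene with normexp background correction, 2 with the filter on all 6 arrays, 1 with the slide as a fixed block and 2 with an intensity trend and robust variance, and 0 in the rest, leave-one-out included (0 to 0). At an unadjusted p under 0.05, a count added after seeing the data, limma had 642 genes with the settings reported. It had 385 without WT replicate 1, 1256 without WT replicate 3, 1136 with no filter on dim probes and 1037 with array weights. The median difference of the 9 genes was 0.0730 with normexp, 0.00648 with the mean of a gene's probes, and 0.02 to 0.06 with 1 mouse left out. Beside these small values the sign of some probes turned. Hydin stood at -0.00345 with quantile normalization, -0.0122 with median scaling, -0.0351 with normexp, -0.00368 in the authors' table and -0.0225 with the slide as a fixed block or slide 2 alone. Spag6 stood at -0.00295 with normexp. With the slide as a fixed block or slide 2 alone, Rsph1 stood at 0.0251, Rsph3a A_51_P376979 at -0.0154 and Spef2 A_51_P289429 at 0.0138, and with the slide as a random block Rsph1 stood at 0.00358. With 1 mouse left out, the ranges that crossed 0 were -0.131 to 0.0650 for Rsph1, -0.00129 to 0.165 for Rsph3a A_51_P376979, -0.00470 to 0.0712 for Rsph3a A_51_P367563, -0.000339 to 0.0464 for Spag16 A_51_P118506, -0.204 to 0.0873 for Spag16 A_52_P376460, -0.270 to 0.0825 for Spag17 A_52_P814677 and -0.0118 to 0.0191 for Hydin. The cause was not tested. Mice with the same number did not deviate together (r of -0.0373, 0.0240 and -0.164). They also lay on different slides, so these r values cannot decide whether the numbers pair mice. With a replicate block limma called 0 genes, 780 had an unadjusted p under 0.05 and the median of the 9 genes was 0.0407. Spag16 A_52_P376460 has no value under the filter on all 6 arrays, and single probes have none under the mean of a gene's probes. Signal over background limits Rsph4a and the dim Spag6 and Hydin probes, for which no difference is given. It also limits the third Spag16 probe and the dimmer Spef2 probe.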
